A study of Homo sapiens with 8 samples.

Results

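The genes described here are 8 transcription factor genes that mark the classical or progenitor state of pancreatic cancer: GATA6, HNF4A, HNF4G, FOXA1, FOXA2, ONECUT2, ELF3 and EHF. They were chosen by name, and all 8 were found once each among the 58870 genes of the table. The libraries came from the established human cell line Panc 10.05, derived from a ductal adenocarcinoma of the pancreas, with 4 libraries labelled as control and 4 labelled as carrying an ELAPOR1 transgene (ELAPOR1 below). ELAPOR1 encodes a membrane protein linked to endosomes, lysosomes and autophagy. The series states that ELAPOR1 induces the classical/progenitor subtype, and the 8 genes were chosen for that reason. The labels name neither the promoter driving the transgene, nor what the controls received, nor whether the cells were a clone or the replicates separate cultures, so p-values measure only the spread between these libraries.

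Pancreatic tumours are commonly sorted into a classical state, with gut and pancreas lineage genes on, and a basal-like state, with these genes low and squamous or mesenchymal genes high. FOXA1 and FOXA2 are pioneer factors that open chromatin in foregut endoderm. GATA6 is the best known marker of classical tumours, and HNF4A and HNF4G are nuclear receptors of gut and liver epithelium. ONECUT2 is a cut-homeodomain factor of the early pancreas and liver. ELF3 and EHF are epithelium-specific ETS factors that are found in ductal and other glandular cells.

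Of the 8 genes, ONECUT2 rose to 178% of its control level, while ELF3 fell to 64.6% and HNF4G to 74.9%. FOXA1 was called lower at 79.4% of control, with groups that overlap and a call lost on leaving out any one of 4 of the 8 libraries. EHF, the member with the highest level, and GATA6, one of the lowest, did not pass the test. HNF4A was not detected beyond a single count and FOXA2 stayed at a few counts, so neither was tested. A gene counted as changed at an edgeR adjusted p-value under 0.05 over 13860 tested genes. By this rule 4 of the 6 tested members were called, 1 higher and 3 lower, beside 44.7% of all tested genes called, 22.6% higher and 22.1% lower. With so many genes called in this comparison, the count by itself says nothing particular to the members.

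Sequence upstream of the start site is shown for the member that rose (ONECUT2), for the members that fell and have an entry in the promoter table (ELF3 and FOXA1), and for HNF4A, the member with a single count over all libraries. It was taken from RefSeq on GRCh38.p14, whose promoter table held 6 of the 8 members in 8 windows (HNF4A and EHF each have a pair of start sites). Windows of 250 bases before the start were searched on both strands for the TATA box written TATAAA, the GC box written GGGCGG, the GATA family motif written GATAA, the FOXA family motif written TGTTTNC, the ONECUT family motif written ATCAAT, the ETS family motif written GGAAG and the HNF4 motif written CAAAGTCCA. Matches are in capitals and none overlap in the stretches shown.
ELF3, chr1:202010541-202010570, plus strand, 46 to 17 bases before the start: caggggacacacTATAAAgccctgagctca
FOXA1, chr14:37595349-37595499, minus strand, 250 to 100 bases before the start: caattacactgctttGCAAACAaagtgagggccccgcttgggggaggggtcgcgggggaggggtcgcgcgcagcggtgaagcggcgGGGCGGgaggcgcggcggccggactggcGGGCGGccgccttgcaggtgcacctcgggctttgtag
ONECUT2, chr18:57435124-57435373, plus strand, 250 to 1 bases before the start: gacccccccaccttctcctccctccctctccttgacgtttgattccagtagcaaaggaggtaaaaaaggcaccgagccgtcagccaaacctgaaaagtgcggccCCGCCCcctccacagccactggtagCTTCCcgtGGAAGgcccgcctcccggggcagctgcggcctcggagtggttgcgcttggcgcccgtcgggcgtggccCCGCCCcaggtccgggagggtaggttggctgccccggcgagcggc
HNF4A, chr20:44355449-44355698, plus strand, 250 to 1 bases before the upstream start: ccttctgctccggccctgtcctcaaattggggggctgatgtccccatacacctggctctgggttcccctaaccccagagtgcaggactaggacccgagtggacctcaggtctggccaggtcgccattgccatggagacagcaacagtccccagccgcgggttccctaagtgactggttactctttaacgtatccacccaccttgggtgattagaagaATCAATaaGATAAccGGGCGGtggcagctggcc

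The ELF3 window held a TATA box match beginning 34 bases before the start, 4 CpG dinucleotides, a GC content of 58.4% and no other match, and only the bases around the TATA box are shown because a long ELF3 exon of GENCODE release 29 covers the window. The FOXA1 window lies inside the FOXA1 gene of GENCODE release 29, and only its part without an annotated exon is shown. The whole window held 2 GC boxes and 1 FOXA family match, with 26 CpG dinucleotides and a GC content of 67.2%. The ONECUT2 window was GC-rich in the same way (68.8%, 20 CpG dinucleotides) and held 2 GC boxes and 2 ETS family matches on opposite strands. The upstream HNF4A window held 1 match each for the ONECUT family, the GATA family and the GC box, close together and within 33 bases of the start, and the downstream window also held 1 match of each. The upstream start is the P2 promoter and the downstream one the P1 promoter, which are known for use in pancreas and in liver. Over all 35116 RefSeq windows of this length, 10.7% held a TATA box match, 42.6% a GC box, 20.4% a GATA match, 15.5% a FOXA match, 5.58% an ONECUT match, 65.1% an ETS match and 0.325% the HNF4 match. The median window held 11 CpG dinucleotides at 58.0% GC.

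Library totals ran from 16558600 to 18128757 counts in control and from 13765509 to 17258166 in ELAPOR1, and 18445 to 18912 genes had a count. ELAPOR1 itself held 1 to 4 counts in each control library and 5910 to 7368 in each ELAPOR1 library, so all 8 libraries matched their labels. Levels below are CPM, counts per 1000000 after TMM scaling, and a value written with ± is the mean and SD of the 4 libraries of a group, control first and ELAPOR1 after it. Of 8 ductal epithelium markers, KRT7, KRT8, KRT18, KRT19, EPCAM, CDH1 and MUC1 were present, with at least 1020 counts each in every library, while CFTR held 0 to 3 counts. Markers of acinar cells (6 of 8 genes at 0 in all libraries, none above 10 counts), islets (5 of 7 at 0), fibroblasts (3 of 8 at 0), leukocytes (3 of 7 at 0) and endothelium (2 of 6 at 0) were near absent. Exceptions above 10 counts were SYP and COL1A1, with summed islet and fibroblast levels of 0.531 to 1.35 and 3.0 to 4.44 CPM, the widely expressed lysosomal gene CD68 with CD14, and VWF. CD68 was 84.4 ± 2.49 and 75.7 ± 2.60 CPM (log2 fold change -0.16, edgeR adjusted p = 2.1e-03) and VWF 1.69 ± 0.177 and 0.761 ± 0.137 CPM (-1.14, adjusted p = 1.9e-03) in control and ELAPOR1 libraries.

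**Figure D1:**
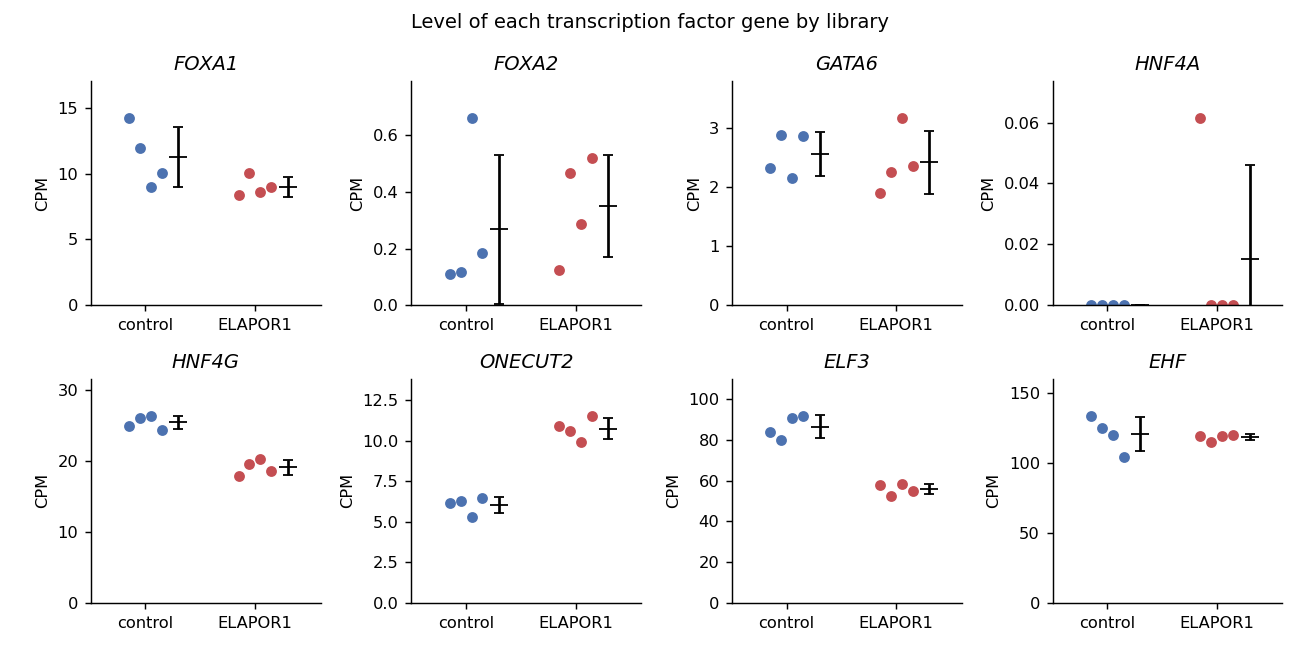
Level of each gene in CPM (vertical axis, from 0, a separate scale per gene) in the 4 control (blue) and 4 ELAPOR1 (red) libraries, with black bars for mean ± SD, the HNF4A bar cut off at 0. The groups do not overlap for ONECUT2, ELF3 and HNF4G and do overlap for FOXA1, GATA6, EHF and FOXA2.

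The pioneer factors were represented almost entirely by FOXA1. FOXA1 (ENSG00000129514.6, chromosome 14, 37589984 to 37596059, minus strand, GENCODE release 29 on GRCh38) measured 14.2, 11.9, 8.99 and 10.1 CPM in control replicates 1 to 4. It measured 8.35, 10.05, 8.57 and 8.999 CPM in ELAPOR1 replicates 1 to 4. The groups overlap, since control replicates 3 and 4 lie within or next to the ELAPOR1 range and control replicate 1 lies highest. The edgeR log2 fold change was -0.33 with an SE of 0.118 and a 95% interval of -0.57 to -0.09 (adjusted p = 0.0217). This call depended on which libraries were included. It was lost without control replicate 1, where the value also moved most (-0.21, edgeR adjusted p = 0.145). With the value little changed, it was also lost without control replicate 2 (-0.31, 0.0645), ELAPOR1 replicate 1 (-0.30, 0.0750) or ELAPOR1 replicate 3 (-0.31, 0.0584). The direction was lower each time. A two-sided exact permutation test over libraries gave p = 0.0857 for FOXA1. FOXA1 overlaps TTC6 on the other strand, which held 8 to 25 counts a library and was not called (log2 fold change -0.29, adjusted p = 0.565).

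FOXA2 (ENSG00000125798.14, chromosome 20, 22581005 to 22585455) was too low for a test, with 2, 2, 11 and 3 counts in the control libraries and 2, 7, 4 and 9 in the ELAPOR1 libraries. These correspond to 0.268 ± 0.263 and 0.349 ± 0.180 CPM (two-sided exact permutation test over libraries, p = 0.686). The highest value belongs to control replicate 3 and the groups overlap. FOXA3, the third gene of the family, held 1 to 12 counts. On a length-scaled TPM basis FOXA1 made up between 82.7 and 96.8% of the summed FOXA1, FOXA2 and FOXA3 level in each control library, against between 81.4 and 96.5% with ELAPOR1.

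GATA6 (ENSG00000141448.9, chromosome 18, 22169443 to 22202528) was low in all libraries. It held 42, 49, 36 and 47 counts in control and 31, 34, 44 and 41 in ELAPOR1, or 2.56 ± 0.374 and 2.42 ± 0.534 CPM. The highest and the lowest value both belong to ELAPOR1 libraries, replicates 3 and 1. The edgeR log2 fold change was -0.09 with an SE of 0.214 (adjusted p = 0.778), and its 95% interval of -0.52 to 0.35 allows anything between 69.7% of control and a 1.27-fold rise. The antisense genes that overlap it were at or near 0, with GATA6-AS1 at no more than 4 counts. GATA6 was not the main GATA factor of these cells: it made up 5.51 ± 0.960% of the summed TPM of GATA1 to GATA6 in control, against 4.85 ± 0.995% with ELAPOR1. GATA4, which acts beside GATA6 in early pancreas and foregut, made up 42.4 ± 0.687% and 47.8 ± 0.880%. GATA2 was close to GATA4 in control, at 16.6 ± 1.55 against 18.4 ± 0.837 TPM. With ELAPOR1 the levels were 15.5 ± 0.221 TPM for GATA2 and 22.6 ± 0.426 TPM for GATA4.

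The HNF4 receptors were represented by HNF4G alone. HNF4A (ENSG00000101076.16, chromosome 20, 44355700 to 44434596) had 0 counts in 7 libraries and 1 count in ELAPOR1 replicate 1. A count of 0 allows up to 3 counts, which is 0.166 to 0.183 CPM in the control libraries and 0.173 to 0.216 CPM in the ELAPOR1 libraries; these limits cover counting error only. HNF4A-AS1, its antisense partner, was at 0 in all 8 libraries. HNF4G (ENSG00000164749.11, chromosome 8, 75407914 to 75566843) measured 24.9, 26.1, 26.4 and 24.4 CPM in the control libraries. In the ELAPOR1 libraries it measured 17.9, 19.6, 20.3 and 18.7 CPM, each below every control library. The edgeR log2 fold change was -0.42 with an SE of 0.0694 (adjusted p = 7.4e-06).

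ONECUT2 was the member that rose. ONECUT2 (ENSG00000119547.6, chromosome 18, 57435685 to 57491297) measured 6.15, 6.31, 5.33 and 6.46 CPM in control libraries, from 89 to 111 counts. It measured 10.9, 10.6, 9.93 and 11.5 CPM in ELAPOR1 libraries, from 138 to 200 counts. Every ELAPOR1 library lies above every control library, and the edgeR log2 fold change was 0.83 with an SE of 0.110 and a 95% interval of 0.61 to 1.05 (adjusted p = 1.4e-07). Its paralogues did not reach this level, with ONECUT1 at 0 to 5 counts and ONECUT3 at 0 in all libraries. ONECUT2 made up 95.4 ± 3.44% of the summed TPM of the family in control, against 93.9 ± 2.87% with ELAPOR1.

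The ETS factors ELF3 and EHF are close relatives at high levels in this line, and they gave different results. ELF3 (ENSG00000163435.16, chromosome 1, 202007945 to 202017188) measured 83.6, 79.9, 90.6 and 91.7 CPM in control libraries. It measured 57.7, 52.7, 58.2 and 54.9 CPM in ELAPOR1 libraries, with no overlap between groups. The edgeR log2 fold change was -0.63 with an SE of 0.0482 and a 95% interval of -0.73 to -0.53 (adjusted p = 7.4e-13). Its counts in 7 of the 8 libraries were not whole numbers. AL691482.3, which overlaps ELF3 on the same strand, also held counts that were not whole. They ran from 1.45 to 12.45 in control and from 0 to 4.2 in ELAPOR1 libraries, and the gene was not tested. How reads were shared between these genes was not tested either. ELF3-AS1 overlaps ELF3 on the other strand at a much lower level, 4.97 ± 1.30 and 4.41 ± 0.518 CPM, and was not called (log2 fold change -0.18, edgeR adjusted p = 0.421); without stated use of strand, reads from the overlap could belong to either.

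EHF (ENSG00000135373.12, chromosome 11, 34621093 to 34661057) measured 133, 125, 120 and 104 CPM in control libraries and 119, 115, 119 and 120 CPM in ELAPOR1 libraries. The ELAPOR1 values lie inside the control range, and the control libraries spread more widely (SD 12.2 against 2.28 CPM). The edgeR log2 fold change was -0.03 with an SE of 0.0555 (adjusted p = 0.708), with a 95% interval of -0.15 to 0.09, or 90.3% to 106% of control. Without control replicate 4, the lowest control library, it was -0.09 and past the threshold (adjusted p = 0.0469). On the TPM scale ELF3 made up 27.7 to 34.9% of the sum of ELF3 and EHF in control, against 21.9 to 22.9% with ELAPOR1, ranges that do not overlap. This share is derived from the ELF3 and EHF levels given above and is no separate result.

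**Figure D2:**
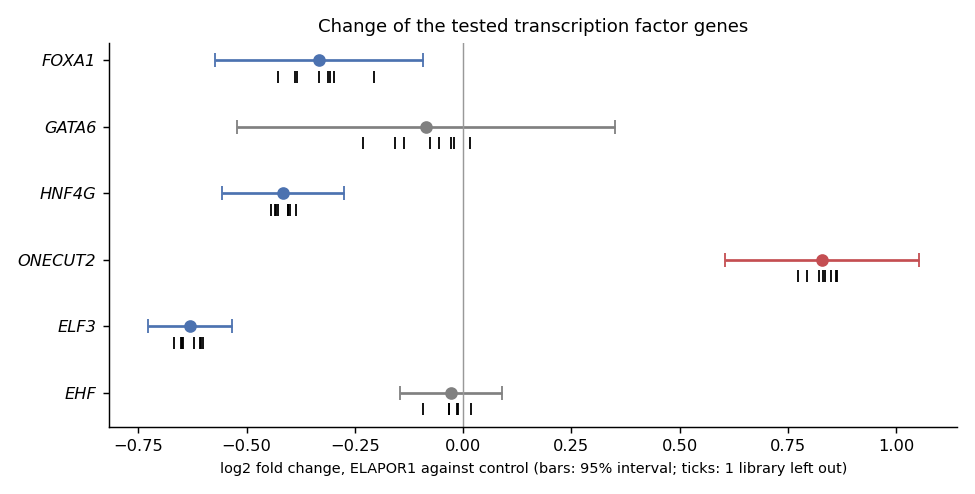
Log2 fold change of ELAPOR1 against control (horizontal axis) for the 6 tested genes, with 95% intervals as bars (red higher, blue lower, grey not called) and, below each, ticks for the values with each of the 8 libraries left out in turn. The intervals of GATA6 and EHF cross 0, and that of FOXA1 comes closest to it among the called genes.

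Of the 6 tested members, 3 (ONECUT2, ELF3 and HNF4G) had control and ELAPOR1 libraries with no overlap in CPM, beside 39.3% of all tested genes. The median log2 fold change of the 6 tested members was -0.21, against 0.00087 over all tested genes.

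Per transcript length, the members covered a wide range of levels. TPM was computed from the counts and the summed exon length of each gene in GENCODE release 29. In control libraries the order was EHF (101 ± 11.2 TPM), ELF3 (44.1 ± 2.80), HNF4G (19.4 ± 0.706), FOXA1 (10.4 ± 2.21), GATA6 (2.38 ± 0.326), ONECUT2 (1.37 ± 0.111), FOXA2 (0.377 ± 0.371) and HNF4A at 0. Each of these neighbours was separated in the control libraries, the lowest library of one being above the highest of the next, down to FOXA2.

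In ELAPOR1 libraries the order of EHF (101 ± 1.71 TPM), ELF3 (29.04 ± 1.26), HNF4G (14.9 ± 0.836) and FOXA1 (8.44 ± 0.733) was as in control, again without overlap between neighbours. ONECUT2 (2.48 ± 0.151 TPM) and GATA6 (2.30 ± 0.508 TPM) overlapped there, the ONECUT2 libraries lying inside the GATA6 range of 1.80 to 3.003 TPM. ONECUT2 has by far the longest exons of the set, with a summed length of 16234 bases against 2603 for FOXA2, so its place in the order is lower by TPM than by counts.

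**Figure D3:**
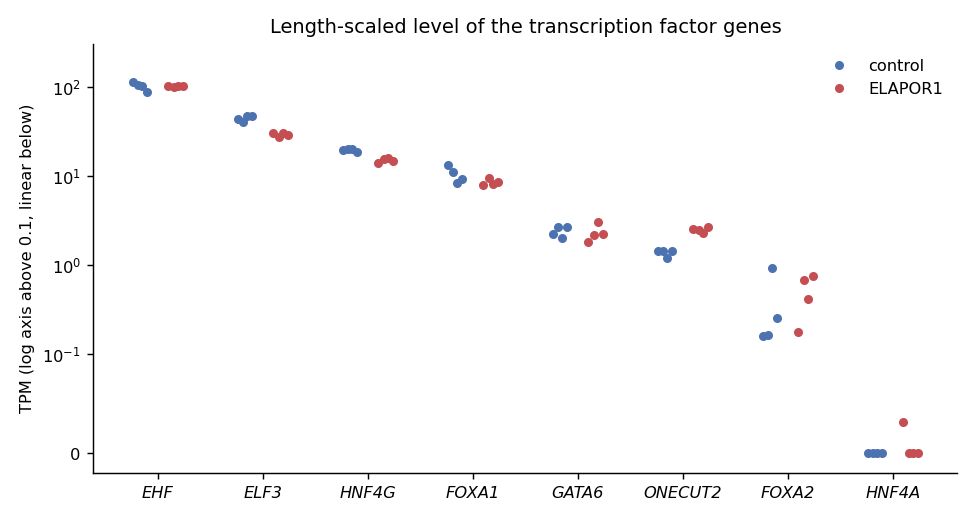
TPM (vertical axis, logarithmic above 0.1 and linear below) of the 8 genes in order of their mean in control, with each point a library (blue control, red ELAPOR1). EHF and ELF3 stand at the top, ONECUT2 moves from 1.37 to 2.48 TPM to the level of GATA6, and HNF4A is at 0 in all but 1 library.

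The paralogues of the members were examined as a list of 13 genes, of which 6 were tested. Of these, 3 rose and none fell, with a median log2 fold change of 0.18, beside 22.6% of all tested genes higher and 22.1% lower. GATA4 rose from 22.3 ± 0.729 to 26.9 ± 0.516 CPM (0.27, edgeR adjusted p = 9.4e-04), while GATA2 (-0.13, adjusted p = 0.160) and GATA3 (0.16, adjusted p = 0.343) were not called. The broadly expressed ETS genes ELF1 (47.5 ± 2.52 to 57.5 ± 1.93 CPM, 0.27, adjusted p = 2.8e-05) and ELF4 (64.7 ± 2.67 to 74.6 ± 3.08 CPM, 0.21, adjusted p = 3.0e-04) rose. ELF5 and SPDEF, the epithelium-specific relatives of ELF3 and EHF, held no more than 6 and 5 counts in any library.

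Other factors of the pancreas and foregut progenitor state made a list of 23 genes, of which only 9 were tested. PDX1, the factor that defines early pancreas, held 1 to 9 counts, and PTF1A, NKX2-2, NEUROG3, CDX2, SOX17, RFX6 and INSM1 were at 0 in all libraries. Of the 9 tested genes, 2 rose and none fell, beside 22.6% of all tested genes higher and 22.1% lower. Their median log2 fold change was 0.16. SOX9, a factor of pancreatic progenitors and ducts, rose from 61.8 ± 1.88 to 81.9 ± 3.65 CPM (0.41, edgeR adjusted p = 2.4e-09). KLF5 was 37.3 ± 1.31 in control and 41.6 ± 2.19 CPM in ELAPOR1 libraries (0.16, adjusted p = 0.0202), a call lost without control replicate 3 (0.15, adjusted p = 0.0570), control replicate 4 (0.14, 0.0502) or ELAPOR1 replicate 3 (0.12, 0.0977) and after trends with GC content and length were removed (0.12, adjusted p = 0.050). HHEX, a homeobox factor of the early foregut, was 9.63 ± 0.675 and 10.8 ± 0.788 CPM (0.16, adjusted p = 0.190).

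Factors of epithelial identity made a list of 13 genes, of which 12 were tested and 8 not called. Of the 12, 1 rose and 3 fell, with a median log2 fold change of -0.09, beside 22.6% of all tested genes higher and 22.1% lower. TFAP2C (10.2 ± 0.398 to 7.58 ± 0.799 CPM, -0.43, edgeR adjusted p = 1.2e-03) and TFAP2A (31.5 ± 0.819 to 24.4 ± 1.32 CPM, -0.37, adjusted p = 1.0e-05), which encode AP-2 factors, fell. The splicing regulators of epithelial isoforms went in opposite directions, ESRP1 lower (-0.23, adjusted p = 4.8e-08) and ESRP2 higher (0.18, adjusted p = 1.3e-04). GRHL2 was 73.4 ± 0.249 and 70.2 ± 2.03 CPM (-0.07, adjusted p = 0.212), and KLF4 was 101 ± 1.98 and 101 ± 4.64 CPM (-0.0015, adjusted p = 0.981).

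Factors of the basal-like and mesenchymal states made a list of 15 genes, of which 8 were tested. Of these, 4 rose and 2 fell, with a median log2 fold change of 0.20, beside 22.6% of all tested genes higher and 22.1% lower. SNAI1 rose from 1.80 ± 0.361 to 3.72 ± 0.422 CPM (1.05, edgeR adjusted p = 7.8e-05), HMGA2 from 30.5 ± 1.85 to 51.9 ± 2.14 CPM (0.77, adjusted p = 2.0e-13) and SNAI2 from 5.25 ± 0.204 to 8.24 ± 0.937 CPM (0.65, adjusted p = 6.2e-05). SNAI1 and SNAI2 encode repressors of epithelial adhesion genes, and HMGA2 a chromatin protein of fetal and undifferentiated cells. ETV5 fell from 64.9 ± 2.71 to 50.96 ± 2.38 CPM (-0.35, adjusted p = 3.2e-07) and FOSL1, an AP-1 subunit at a high level in this line, from 691 ± 25.4 to 597 ± 4.34 CPM (-0.21, adjusted p = 1.7e-07). TP63, the master factor of the squamous program, held 0 to 4 counts, and GLI2 also 0 to 4.

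Genes of liver and intestine that are often given as HNF4 targets made a list of 22, and 18 of them held no more than 10 counts in any library, 10 of those at 0 in all 8. Only 4 were tested. SERPINA1, which encodes alpha-1 antitrypsin, rose from 8.40 ± 0.675 to 16.1 ± 1.18 CPM (0.93, edgeR adjusted p = 5.1e-10). VIL1, which encodes the brush border protein villin, was 1.43 ± 0.571 and 0.786 ± 0.282 CPM (-0.88, adjusted p = 0.0373), a call that was lost in 8 of 17 alternatives, among them with DESeq2 (adjusted p = 0.0633), with limma-voom (0.0572) and without control replicate 3 or 4 or ELAPOR1 replicate 1, 2 or 4 (0.0547 to 0.170). MUC13 was 11.6 ± 0.259 and 11.4 ± 1.16 CPM (-0.01, adjusted p = 0.918) and APOM 1.07 ± 0.235 and 0.687 ± 0.472 CPM (-0.68, adjusted p = 0.153).

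Co-regulators with which the member families act made a list of 20 genes, of which 15 were tested. There were 7 higher and 2 lower, with a median log2 fold change of 0.17, beside 22.6% of all tested genes higher and 22.1% lower. The nuclear receptor coactivator NCOA1 (28.6 ± 1.53 to 37.7 ± 1.65 CPM, 0.40, edgeR adjusted p = 1.4e-06), the Mediator subunit MED1 (0.37, adjusted p = 4.2e-07) and the acetyltransferase CREBBP (0.28, adjusted p = 4.8e-06) rose most. NCOA3 was lower (-0.14, adjusted p = 0.0151), a call lost without ELAPOR1 replicate 1 (-0.11, adjusted p = 0.0733), and so was the Groucho family gene TLE5 (-0.11, adjusted p = 3.9e-03). ZFPM1, a partner of GATA factors, was 2.42 ± 0.595 and 2.67 ± 0.712 CPM (0.15, adjusted p = 0.631).

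Among the ductal epithelium markers, KRT7, KRT19 and CDH1 were higher and KRT8, KRT18 and MUC1 lower, with log2 fold changes from -0.36 (KRT18) to 0.31 (KRT7). The CDH1 value of 0.11 became 0.05 and its call was lost after trends with GC content and length were removed (edgeR adjusted p = 0.0759). EPCAM was 634 ± 10.6 and 623 ± 16.2 CPM (-0.03, edgeR adjusted p = 0.491).

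**Figure D4:**
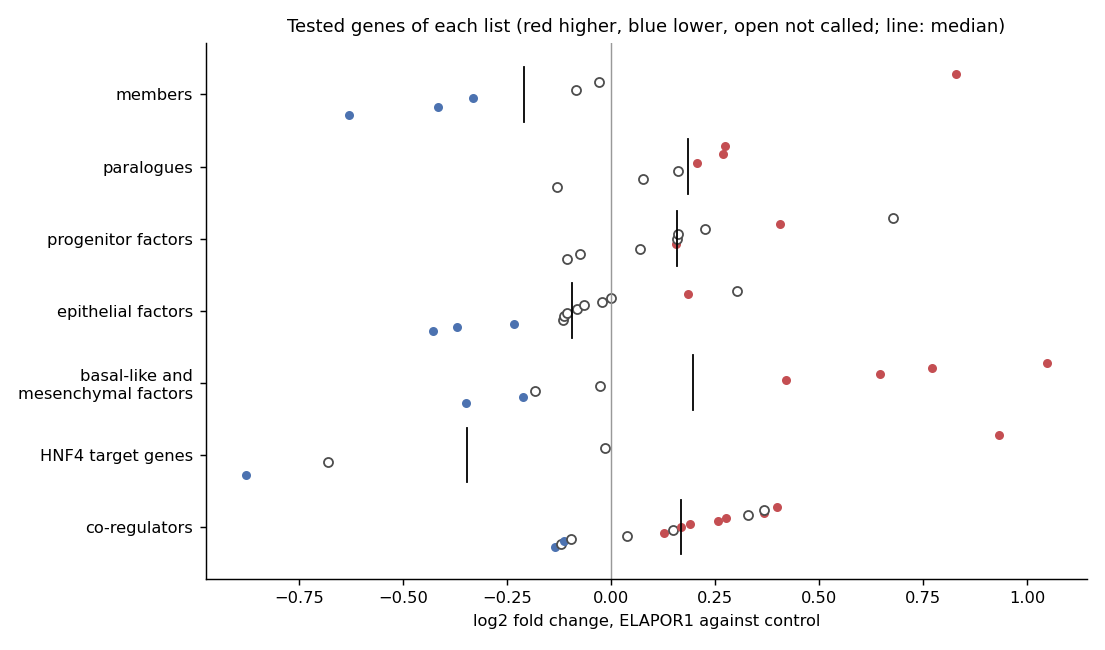
Log2 fold change of ELAPOR1 against control (horizontal axis) for each tested gene of the 7 lists (rows), with called genes in red (higher) or blue (lower), genes that did not pass the test open, and the median of the list as a line. Called members go both ways, with ONECUT2 at 0.83 and ELF3 at -0.63 as the extremes.

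The 5 tested genes on either side of each member along the chromosome were called in both directions. Over all tested genes, 22.6% were called higher and 22.1% lower. Beside ONECUT2 the median log2 fold change was -0.01, with 2 of 10 higher and 1 lower, and the 2 higher were the nearest tested genes on either side, WDR7 (0.51) and FECH (0.20, edgeR adjusted p = 0.0484). Beside ELF3 the median was 0.0076, with 3 higher and 1 lower. Beside HNF4G it was -0.01, with 1 higher and 3 lower, and the nearest tested genes went opposite ways, GDAP1 higher at 1.197 and PEX2 lower at -0.29. Beside FOXA1 it was -0.11, with 1 higher and 1 lower, the latter being MIPOL1 (-0.51), the nearest tested gene at lower coordinates. GATA6, EHF, HNF4A and FOXA2 had neighbours with medians of -0.05, 0.07, 0.03 and -0.04. Whether neighbours moved with a member was not tested.

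**Figure D5:**
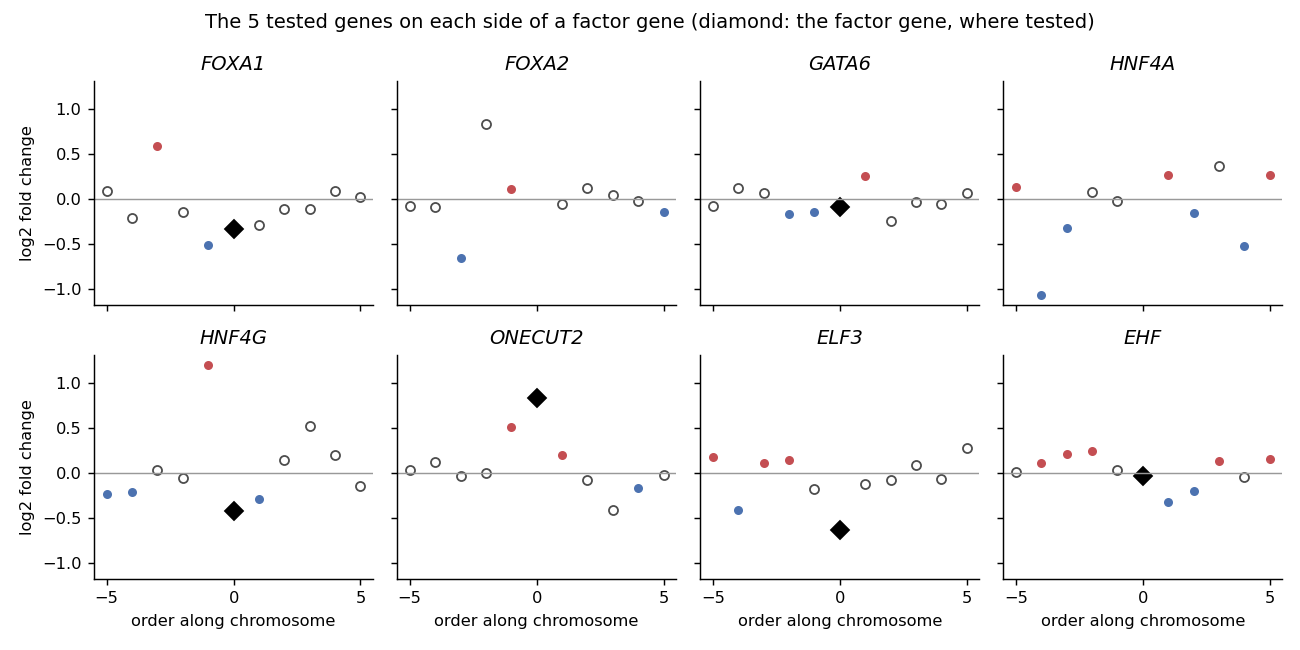
Log2 fold change (vertical axis) of the 5 tested genes on each side of each member, in order along the chromosome (horizontal axis), red higher, blue lower and open not called, with the member as a black diamond where tested. ONECUT2 lies above all 10 of its neighbours, and ELF3 and HNF4G each lie below all 10 of theirs.

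Genes whose levels ran most like those of each tested member were sought by Pearson's r of log2(CPM + 1) over the 8 libraries, among the 10702 genes whose mean reached 5 CPM. These values are descriptions, since the libraries share 2 groups and any pair of genes that differ between groups will correlate. For ELF3 they were SNHG3, RAB25 and CFB (r = 0.995 each), all lower in ELAPOR1 libraries. For HNF4G they were DGAT1 (r = 0.996), HIBADH and CREBRF (r = 0.992 each), also lower. For ONECUT2 they were GORASP2 (r = 0.995), HNRNPL (r = 0.994) and CCDC71L (r = 0.993), which were higher, CCDC71L by 0.68 on the log2 scale.

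For FOXA1 they were HIVEP1 (r = 0.959), LINC01322 (r = 0.951) and AC139769.1 (r = 0.949), of which AC139769.1 alone was called (-0.32, edgeR adjusted p = 0.0270, lost in 6 of 18 alternatives). For EHF they were TBC1D23 (r = 0.9745), FGD6 (r = 0.958) and ASAH2B (r = 0.956), and for GATA6 MICAL1 (r = 0.937), RTL8C (r = 0.930) and GGT1 (r = 0.927). None of these 6 was called, and they share with EHF and GATA6 a spread among libraries of one group that is as wide as the difference between groups.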

How the data were processed

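RNA sequencing of 8 libraries was used, 4 in each group. Per the submitters' processing notes, cutadapt, STAR, RSEM and DESeq2 were used with the build hg38, with roles and versions not given in the sources used here; annotation release and use of strand are not stated. The authors deposited expected counts per gene from their quantification, not scaled between libraries, of which 15.0% of the nonzero values were not whole. Gene identifiers were matched without version to GENCODE release 29 on GRCh38 (58597 of 58870) for positions, exon lengths and GC content.

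Rounded counts went into edgeR 4.0.16 under R 4.3.3 (filterByExpr, TMM, robust quasi-likelihood test, two-sided, Benjamini-Hochberg adjustment over 13860 genes). The standard error is the log2 fold change divided by the square root of F. An exact permutation test of 4 against 4 libraries cannot go below p = 0.0286. The steps were tested on simulated data with far fewer changed genes than were called here. That test does not show how they perform in the present setting. Alternatives used limma 3.58.1, DESeq2 1.42.0, other scalings and filters, a replicate block and removal of GC and length trends (splines with 5 degrees of freedom, values for 99.8% of tested genes). Upstream sequence is from RefSeq, and plots were drawn with matplotlib 3.10.9.

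The members and gene lists were chosen with earlier results of these data known, so they are no independent evidence. The genes named are all members and ELAPOR1, from each list the 3 called genes with the largest rise and the 3 with the largest fall, the 3 genes most like each tested member, and overlapping genes; others, such as HHEX, GRHL2, KLF4, EPCAM and chromosome neighbours, were named after their values were seen.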

Additional observations from a re-analysis of the deposited data

Results flagged for a closer look

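In groups of 4 libraries, a single library was picked out where its gap to the nearest other as a share of the group's range exceeded Dixon's 95% critical value. Of 128 groups examined (library totals, CPM of the named genes and family shares), 8 met this, where chance gives about 1 in 20, or 6.4. The groups are not independent of each other, so these numbers are a rough guide only.

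EHF was at 115 CPM in ELAPOR1 replicate 2 and at 119 to 120 CPM in the other ELAPOR1 libraries, and TBC1D23 at 91.9 CPM in the same library against 95.9 to 96.2 CPM. TBC1D23 was named because its levels ran most like those of EHF, so its gap is not independent of that of EHF. FOXA2 was at 0.659 CPM in control replicate 3 and at 0.111 to 0.183 CPM in the other control libraries. HNF4A was at 0.0614 CPM, a single count, in ELAPOR1 replicate 1 and at 0 elsewhere, so that HNF4G made up 99.8% of the HNF4 level there and 100% in the others. TFAP2A was at 32.7 CPM in control replicate 2 against 31.0 to 31.2 CPM, CREBRF at 25.5 CPM in control replicate 4 against 28.5 to 28.7 CPM, and RTL8C at 25.7 CPM in ELAPOR1 replicate 3 against 22.5 to 22.95 CPM in the other libraries of their groups. The cause of these gaps was not tested.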

How the results depend on the processing

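ELF3, HNF4G and ONECUT2 kept their direction and call under all 18 alternatives (log2 fold changes -0.67 to -0.60, -0.44 to -0.39 and 0.77 to 0.86), and GATA6 was called under none. FOXA1 was lower under all 18 (-0.43 to -0.21) and called under 14, and EHF ran from -0.09 to 0.02. The number of members called was 4 under each alternative other than leaving out a library, which gave 3 to 5; the number of all genes called ran from 5557 to 6485. No scaling moved the median of all genes by more than 0.1. Called genes among the HNF4 targets numbered 1, not 2, with DESeq2, limma-voom, at least 10 counts in every library or a replicate block, and 1 to 3 without each library. Without each library the progenitor list had 1 to 2 called genes, and the endothelial list had 0 where 10 counts were required in every library. Of 860 pairs of another named gene and an alternative, 838 kept direction and call, 20 lost the call, 2 gained it and none reversed; CDH1 lost it (0.05, edgeR adjusted p = 0.0759) and HIVEP1 (-0.16, 0.0364) and FGD6 (-0.09, 0.0140) gained it after GC and length trends were removed. The order of the 8 levels was the same with the longest transcript as length.

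No shared deviation of same-numbered libraries was seen: their deviations from their group means correlated at -0.0213 to 0.0326. Only 1 of 4 control libraries correlated best with its own number. This cannot show whether same-numbered libraries were prepared together, which the labels do not state. With the replicate block, 4 members and 5926 genes were called, against 6193 genes without it, and VIL1 lost its call (-0.85, edgeR adjusted p = 0.0557). Without the filter, FOXA2 was at 0.39 on the log2 scale with an SE of 0.656 (edgeR adjusted p = 0.714), and HNF4A at 1.62 with an SE of 1.56 (0.497), so at this depth changes of a size near these errors could not be seen in either gene.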
